A study of Danio rerio with 12 samples.

Results

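The genes described here run chromosome duplication and cell division: 35 zebrafish genes chosen by symbol, of which 18 act in DNA replication and the G1 to S phase transition and 17 act in mitosis. Whole wild-type AB zebrafish embryos had been injected into the yolk during early cleavage. Each morpholino was dosed at 0.25 to 1.0 pmol, and RNA was pooled from 18 to 35 embryos for each array. The 4 groups were embryos with morpholinos against PCSK7 and p53 at 6 h, embryos with a control morpholino at 6 h, embryos with morpholinos against PCSK7 and p53 at 24 h, and embryos with a control morpholino at 24 h, all in hours after fertilization, with 3 one-colour arrays in each. A morpholino is a synthetic antisense molecule that pairs with 1 kind of RNA and keeps it from being translated or spliced. The series title concerns the role of PCSK7, a protease that cleaves precursors of secreted proteins, in zebrafish development. The p53 morpholino was always injected with the PCSK7 morpholino, so the effects of the pair cannot be separated, and the sources used here do not give the target of the control morpholino.

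Through the RefSeq identifiers of the probes, 31 of the 35 genes were found, on 73 probes, and all 31 passed the filter on dim probes, among 12849 genes tested in all. They comprise 17 replication genes and 14 mitosis genes. No probe carried the names rrm2, bub1, top2a or incenp, so these 4 genes have no value. The name rrm2 is a former name of rrm2l and rrm2b in the gene table, and these are described beside the members without being counted.

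In a dividing cell, the helicase subunits mcm2 to mcm7 are loaded on replication origins in G1 by cdc6 and cdt1, with geminin (gmnn) restraining cdt1 afterwards. Cyclins D and E then start S phase together with cyclin-dependent kinases, cyclin A carries the cell through S phase and G2, and cyclin B with cdk1 drives entry into mitosis, where aurora and polo-like kinases, the spindle checkpoint and the anaphase-promoting complex order chromosome segregation. The first divisions of a zebrafish embryo are fast and run on RNA from the egg, whereas later divisions lengthen, depend on the embryo's own transcription and become restricted to certain tissues.

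A level below is the log2 of a gene's processed signal minus the log2 of that array's 75th percentile, so that 0 marks the 75th percentile of all non-control probes, and levels of different genes are not compared. A change is the difference of group means on that scale with the standard error (SE) of limma's fit, and a change is called where p, adjusted over all kept probes, is under 0.05. The brightest kept probe of a gene, by its mean over all arrays, stands for the gene. The number of arrays, 3 per group, limits the precision, and no source says whether the pools were of separate clutches, so the spread behind the p-values may be technical in part. Whole embryos were measured, so fewer cells of a kind and less RNA per cell cannot be told apart.

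Arrays of the same group correlated at 0.993 to 0.996. All 3 PCSK7+p53 arrays of 6 h shared 1 slide and all 3 of 24 h another, whereas the control arrays lay on 3 other slides, each with an array of either time. The control arrays were scanned in a session 636 days before that of the PCSK7+p53 arrays. The file headers also give a later release of the array design and a later Feature Extraction version for all PCSK7+p53 arrays than for all control arrays. Slide, scan session, software version and design release therefore cannot be told apart from the morpholinos. The 75th percentile signal was 633.8 to 730.0 at 6 h in PCSK7+p53 embryos, against 403.4 to 512.6 in control embryos, and 1022 to 1087 at 24 h in PCSK7+p53 embryos, against 695.4 to 993.3 in control embryos. No probe of pcsk7 was named (0 probes), so the level of the targeted RNA is not analysed here. With either morpholino, all 8 measured genes of a list of 24 h tissue genes were higher at 24 h and all 10 genes of a list of early-embryo genes were lower. PCSK7+p53 and control embryos differed in many genes besides those of the cell cycle, so counts are read against the share over all genes.

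At 6 h, replication and mitosis genes went in both directions: 11 of the 31 were higher in PCSK7+p53 embryos than in control embryos, 9 were lower and 11 had no call. Of all genes tested, 62.9% were called at 6 h, 32.0% higher and 30.9% lower, so the share of members called, 64.5%, was near that background. The median change of the members was 0.01, beside 0.00 over all genes. Changes of at least 2-fold were called for 3 members (cdk1 higher, gmnn and cdt1 lower), beside 13.5% of all genes. The levels of the groups did not overlap for 13 members with higher and 10 with lower levels in PCSK7+p53 embryos, beside 34.4% and 34.2% of all genes. With normexp background correction, 34.5% of the calls over all genes at 6 h were higher, in place of 50.8%. The members then had 13 higher and 9 lower calls, beside 25.2% higher and 47.9% lower over all genes.

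At 24 h the calls ran mostly one way: 21 of the 31 members were lower in PCSK7+p53 embryos, 2 (ccnb2 and birc5b) were higher and 8 had no call. Over all genes, 46.8% were called at 24 h, 21.0% higher and 25.8% lower, while lower calls covered 67.7% of the members. The decreases were small, since the member that fell most, ccne2, changed by -0.87 and 0 members were called with at least 2-fold, beside 5.83% of all genes. The median change was -0.32 for the members and -0.03 over all genes. Groups did not overlap for 22 members with lower levels in PCSK7+p53 embryos and for 2 with higher levels, beside 34.5% and 29.2% of all genes.

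The replication and mitosis genes gave similar counts at 24 h. Of the 17 replication genes, 12 were lower and 0 higher, with a median change of -0.38, and of the 14 mitosis genes, 9 were lower and 2 higher, with a median of -0.26. At 6 h the replication genes had 5 higher and 5 lower calls and the mitosis genes 6 higher and 4 lower. That is 29.4% in either direction for the replication genes and 42.9% higher and 28.6% lower for the mitosis genes, beside 32.0% higher and 30.9% lower over all genes. Cell cycle genes outside the set, described further on, are plotted with them.

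**Figure D1:**
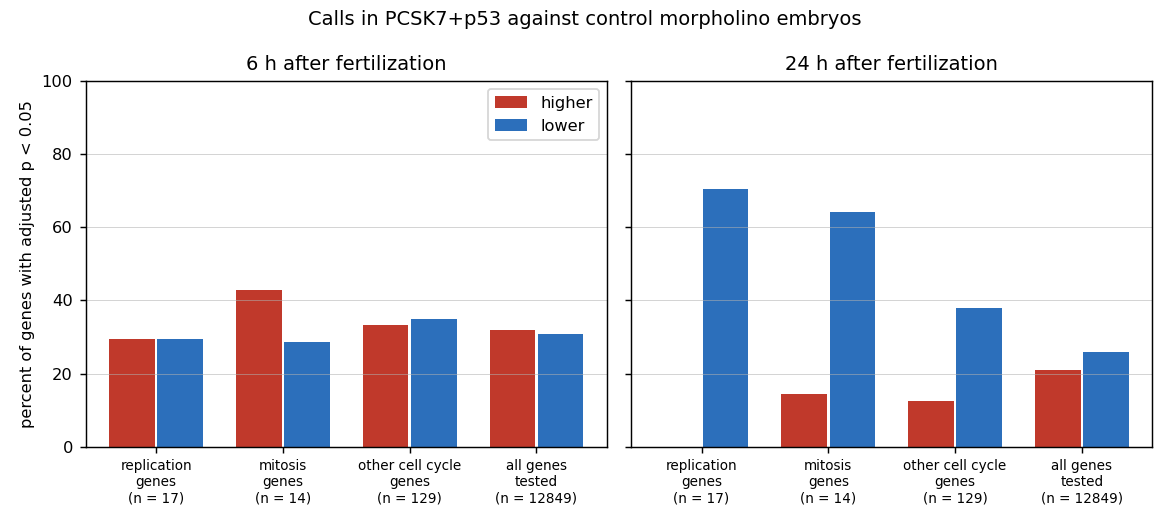
Percent of genes called higher (red) and lower (blue) in PCSK7+p53 against control embryos at 6 h (left) and 24 h (right), for the 17 replication genes, the 14 mitosis genes, 129 other cell cycle genes and all 12849 genes tested. At 24 h, lower calls covered 70.6% of the replication genes and 64.3% of the mitosis genes, beside 25.8% of all genes.

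**Figure D2:**
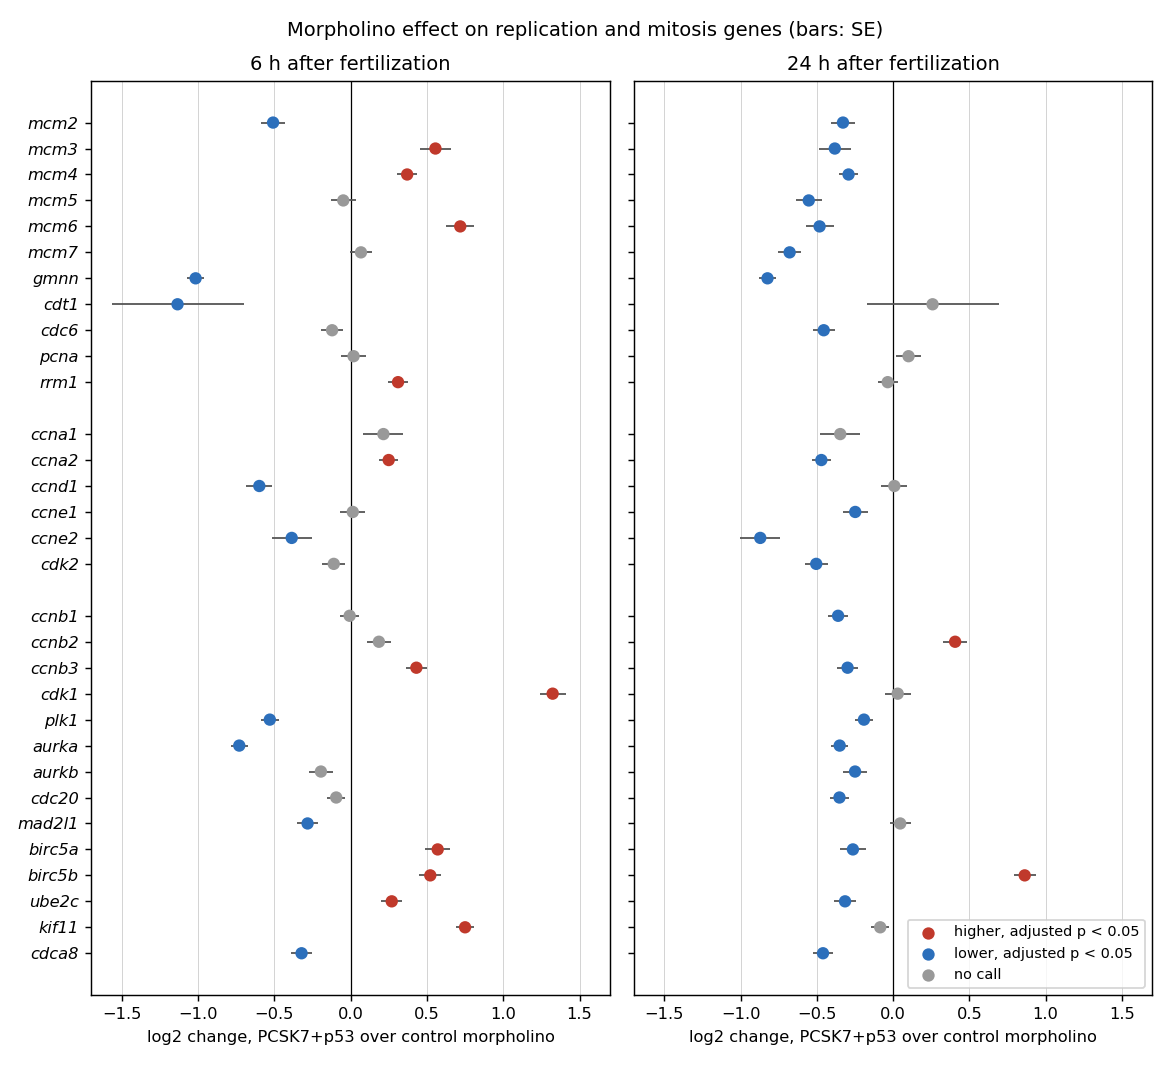
Change of each of the 31 genes on the log2 scale, PCSK7+p53 over control embryos, at 6 h (left) and 24 h (right), with bars of 1 SE (3 arrays per group). The genes are grouped from top to bottom as replication machinery, cyclins of G1 and S phase with cdk2, and mitosis, and red, blue and grey points mark higher, lower and no call.

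Among the 6 helicase subunits, mcm3, mcm4 and mcm6 were higher in PCSK7+p53 embryos at 6 h and mcm2 was lower, whereas at 24 h all 6 were lower. However, the 24 h calls of mcm2 and mcm4 were lost with quantile and cyclic loess normalization, and that of mcm2 also in the authors' deposited table. At 6 h, mcm6 had levels of 2.82, 2.80 and 2.63 in PCSK7+p53 embryos, against 2.23, 1.91 and 1.95 in control embryos, a change of 0.72 (SE 0.09, adjusted p = 9.59e-05). Its 24 h levels were 4.64, 4.61 and 4.65 in PCSK7+p53 embryos, against 5.05, 5.18 and 5.12 in control embryos, a change of -0.48 (SE 0.09, adjusted p = 0.00193). So all PCSK7+p53 arrays lay above all control arrays at 6 h and below all of them at 24 h, and both mcm6 probes were called in these directions. For mcm3, the 6 h levels were 2.27, 2.33 and 2.40 in PCSK7+p53 embryos, against 2.00, 1.67 and 1.67 in control embryos, a change of 0.56 (SE 0.10, adjusted p = 0.00111). At 24 h they were 3.37, 3.39 and 3.54 in PCSK7+p53 embryos, against 3.81, 3.95 and 3.69 in control embryos, a change of -0.38 (SE 0.10, adjusted p = 0.013). The groups did not overlap at either time, but the other mcm3 probe had no call at 6 h, at -0.26, and without control replicate 2 of 24 h the 24 h call was lost (adjusted p 0.00471 to 0.0523 over 23 alternatives).

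The remaining subunits differed in their 6 h behaviour. Levels of mcm4 at 6 h were 4.15, 4.34 and 4.20 in PCSK7+p53 embryos, against 3.86, 3.81 and 3.91 in control embryos, a change of 0.37 (SE 0.06, adjusted p = 0.000652) that all 4 of its probes shared. At 24 h mcm4 stood at 3.99, 3.92 and 3.98 in PCSK7+p53 embryos, against 4.26, 4.28 and 4.22 in control embryos, a change of -0.29 (SE 0.06, adjusted p = 0.00411). Here too the groups did not overlap at either time. For mcm5, 6 h levels of 4.49, 4.38 and 4.39 in PCSK7+p53 embryos, against 4.55, 4.43 and 4.43 in control embryos, overlapped, with a change of -0.05 (SE 0.08, adjusted p = 0.635). Its 24 h levels, 4.90, 4.80 and 4.97 in PCSK7+p53 embryos, against 5.51, 5.55 and 5.28 in control embryos, did not overlap and changed by -0.55 (SE 0.08, adjusted p = 0.000527). The 4 probes of mcm5 disagreed, since 2 others were called higher at 6 h and only 2 of the 4 were called lower at 24 h. With the mean of its probes, the 24 h call of mcm5 was lost (adjusted p 7.19e-05 to 0.0543 over 23 alternatives). Levels of mcm7 at 6 h were 6.11, 6.27 and 6.26 in PCSK7+p53 embryos, against 6.23, 6.15 and 6.06 in control embryos, a change of 0.07 (SE 0.07, adjusted p = 0.452) with overlapping groups. At 24 h they were 6.15, 6.23 and 6.24 in PCSK7+p53 embryos, against 6.82, 6.97 and 6.87 in control embryos, a change of -0.68 (SE 0.07, adjusted p = 7.48e-05). Every PCSK7+p53 array was below every control array at 24 h, and 3 of 4 probes were called lower. The subunit mcm2 was lower at both times on both of its probes, with changes of -0.51 (SE 0.08, adjusted p = 0.000336) at 6 h and -0.33 (SE 0.08, adjusted p = 0.00688) at 24 h. Where the 24 h call of mcm2 was lost, its change shrank to as little as -0.096 (adjusted p 0.00189 to 0.39 over 23 alternatives).

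The gene of the licensing inhibitor geminin, gmnn, was lower in PCSK7+p53 embryos at both times. At 6 h it had levels of 5.02, 5.06 and 4.97 in PCSK7+p53 embryos, against 6.07, 6.01 and 6.02 in control embryos, a change of -1.02 (SE 0.06, adjusted p = 6.39e-07). At 24 h the levels were 1.27, 1.19 and 1.15 in PCSK7+p53 embryos, against 2.08, 2.03 and 1.98 in control embryos, a change of -0.82 (SE 0.06, adjusted p = 7.89e-06). Neither time showed any overlap between groups, and both probes of gmnn were called lower at both times. The origin-loading ATPase gene cdc6 had 6 h levels of 5.63, 5.52 and 5.51 in PCSK7+p53 embryos, against 5.70, 5.71 and 5.61 in control embryos, a change of -0.12 (SE 0.07, adjusted p = 0.164). Its 24 h levels were 2.33, 2.50 and 2.55 in PCSK7+p53 embryos, against 2.89, 2.95 and 2.90 in control embryos, a change of -0.46 (SE 0.07, adjusted p = 0.000645), with every PCSK7+p53 array below every control array and both probes called.

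The gene for the loading factor restrained by geminin, cdt1, was dim on its single probe, which was well above background on 2 of 3 PCSK7+p53 arrays at 6 h and on all other arrays. Its 6 h levels were -6.17, -7.42 and -5.86 in PCSK7+p53 embryos, against -5.04, -5.22 and -5.78 in control embryos, a change of -1.14 (SE 0.43, adjusted p = 0.0432). The 24 h levels were -5.39, -5.66 and -4.32 in PCSK7+p53 embryos, against -5.61, -5.11 and -5.43 in control embryos, a change of 0.26 (SE 0.43, adjusted p = 0.66). Although the 6 h groups did not overlap, the 6 h call was lost in 10 of 21 alternatives (adjusted p 0.00177 to 0.156 over 21 alternatives). These included leaving out control 6 h replicate 1 or 2, PCSK7+p53 6 h replicate 2, PCSK7+p53 24 h replicate 1 or any of the 3 control arrays of 24 h.

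At the replication fork, the gene of the sliding clamp, pcna, had no call at either time, at 0.02 at 6 h and 0.10 at 24 h. The large subunit of ribonucleotide reductase, rrm1, which supplies deoxynucleotides, had 6 h levels of 4.65, 4.66 and 4.61 in PCSK7+p53 embryos, against 4.28, 4.30 and 4.40 in control embryos, a change of 0.31 (SE 0.07, adjusted p = 0.00245) shared by all 3 probes. At 24 h rrm1 had levels of 4.95, 4.85 and 4.88 in PCSK7+p53 embryos, against 4.87, 5.04 and 4.87 in control embryos, a change of -0.04 (SE 0.07, adjusted p = 0.694). Thus the groups were apart at 6 h and overlapped at 24 h.

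Both genes once called rrm2 encode forms of the small subunit of the same enzyme, and their description was chosen after their values were seen. For rrm2l the 6 h levels were 6.55, 6.70 and 6.68 in PCSK7+p53 embryos, against 6.60, 6.65 and 6.59 in control embryos, a change of 0.03 (SE 0.08, adjusted p = 0.79). The 24 h levels were 4.67, 4.39 and 4.44 in PCSK7+p53 embryos, against 5.06, 5.07 and 4.97 in control embryos, a change of -0.53 (SE 0.08, adjusted p = 0.000545). The 24 h groups did not overlap, 5 of the 6 rrm2l probes were called lower there, and at 6 h the probes disagreed, with 1 higher and 3 lower. The second gene, rrm2b, whose human counterpart is induced by p53, had 6 h levels of -8.73, -8.52 and -5.09 in PCSK7+p53 embryos, against -1.04, -0.98 and -0.99 in control embryos. Its single probe was well above background on 1 of the 3 PCSK7+p53 arrays and on all control arrays at 6 h, and the level was at least 35.4-fold lower in PCSK7+p53 embryos (adjusted p = 7.25e-05). That fold sets each PCSK7+p53 array at the higher of its own value and the dimmest signal well above background. At 24 h rrm2b stood at -0.40, 0.26 and 0.42 in PCSK7+p53 embryos, against 0.52, -0.58 and -0.12 in control embryos, a change of 0.15 (SE 0.79, adjusted p = 0.894) with overlapping groups.

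Cyclins of G1 and S phase and cdk2 had 1 higher call (ccna2), 2 lower calls (ccnd1 and ccne2) and 3 without a call at 6 h, and 4 lower calls at 24 h. Lower calls thus covered 33.3% of these 6 genes at 6 h, beside 30.9% of all genes, and 66.7% at 24 h, beside 25.8% of all genes. The D-type cyclin gene ccnd1, which links growth signals to cell cycle entry, had 6 h levels of 5.10, 4.98 and 5.05 in PCSK7+p53 embryos, against 5.67, 5.78 and 5.48 in control embryos, a change of -0.60 (SE 0.08, adjusted p = 0.000182). At 24 h its levels were 4.92, 5.06 and 4.96 in PCSK7+p53 embryos, against 4.94, 4.91 and 5.06 in control embryos, a change of 0.01 (SE 0.08, adjusted p = 0.951). The decrease was thus called at 6 h, on all 4 probes and without overlap, while at 24 h the groups overlapped and 1 of the 4 probes was called lower. For ccne2, a cyclin E gene that acts with cdk2 at the start of S phase, the 6 h levels were 0.71, 0.70 and 0.83 in PCSK7+p53 embryos, against 1.26, 1.31 and 0.83 in control embryos, a change of -0.39 (SE 0.13, adjusted p = 0.0275). At 24 h they were -0.55, -0.54 and -0.23 in PCSK7+p53 embryos, against 0.50, 0.43 and 0.36 in control embryos, a change of -0.87 (SE 0.13, adjusted p = 0.000537), with the groups apart at 24 h and overlapping at 6 h. The 6 h call of ccne2 (adjusted p 0.00222 to 0.589 over 23 alternatives) was lost without replicate 1 or 2 of either 6 h group, and its second probe had no call at either time. This call was also lost with the mean of the probes, a replicate block and the 6 h groups alone.

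The kinase gene cdk2 had 6 h levels of 3.77, 3.56 and 3.66 in PCSK7+p53 embryos, against 3.79, 3.75 and 3.79 in control embryos, a change of -0.11 (SE 0.08, adjusted p = 0.225). At 24 h the levels were 2.48, 2.57 and 2.68 in PCSK7+p53 embryos, against 3.11, 3.13 and 3.00 in control embryos, a change of -0.50 (SE 0.08, adjusted p = 0.000482). All PCSK7+p53 arrays were below all control arrays at 24 h, and 1 of its 2 probes was also called lower at 6 h. The second cyclin E gene, ccne1, changed by 0.01 (SE 0.08, adjusted p = 0.896) at 6 h and by -0.25 (SE 0.08, adjusted p = 0.0288) at 24 h. Its probes disagreed at 6 h, where 2 of 3 were called lower and the representing one was not (-0.34 for the mean of the probes), and the 24 h call of the representing probe (adjusted p 0.000501 to 0.105 over 23 alternatives) was lost without replicate 3 of either 24 h group. The 24 h call was also lost with normexp, a replicate block and the 24 h groups alone.

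The A-type cyclin gene ccna2, which acts in S phase and G2, had 6 h levels of 6.28, 6.13 and 6.17 in PCSK7+p53 embryos, against 5.98, 5.98 and 5.87 in control embryos, a change of 0.25 (SE 0.06, adjusted p = 0.00512). Its 24 h levels were 3.15, 3.20 and 3.20 in PCSK7+p53 embryos, against 3.62, 3.69 and 3.66 in control embryos, a change of -0.47 (SE 0.06, adjusted p = 0.000201). The groups did not overlap at either time, all 3 probes were called higher at 6 h, and 2 of 3 were called lower at 24 h. For ccna1, an A-type cyclin that in mouse is needed in male meiosis, 6 h levels were 4.76, 4.79 and 4.73 in PCSK7+p53 embryos, against 4.52, 4.52 and 4.60 in control embryos, a change of 0.21 (SE 0.13, adjusted p = 0.184). At 24 h it had levels of -4.27, -4.51 and -4.28 in PCSK7+p53 embryos, against -3.92, -3.75 and -4.34 in control embryos, a change of -0.35 (SE 0.13, adjusted p = 0.0527). Neither change was called, and the groups were apart at 6 h and overlapped at 24 h.

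**Figure D3:**
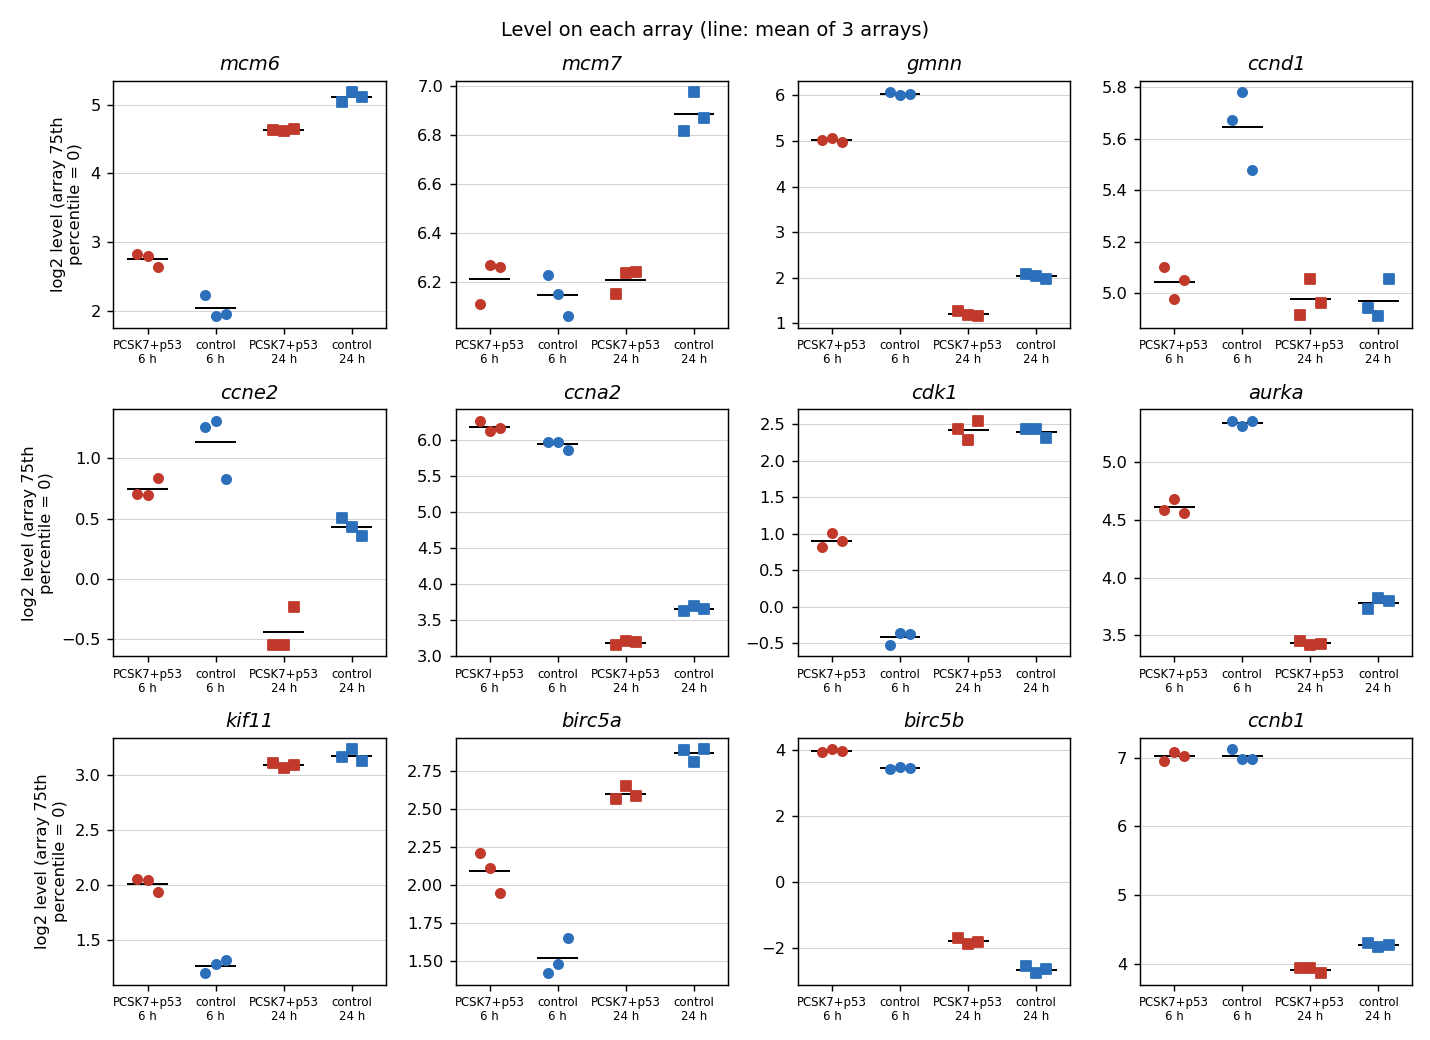
Level of 12 of the genes on each array (log2 scale, 0 at the array's 75th percentile, own axis range for each gene), with PCSK7+p53 arrays in red, control arrays in blue, circles at 6 h, squares at 24 h and a line at the mean of 3 arrays. The groups of mcm6 are apart at both times in opposite directions, those of ccnd1 overlap at 24 h alone and those of mcm7 overlap at 6 h alone.

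Mitotic entry genes did not move as 1 group at 6 h: the kinase gene cdk1 was higher in PCSK7+p53 embryos, whereas plk1 and aurka, kinases of mitotic entry and of spindle assembly, were lower. The 6 h levels of cdk1 were 0.82, 1.01 and 0.90 in PCSK7+p53 embryos, against -0.52, -0.36 and -0.37 in control embryos, a change of 1.32 (SE 0.09, adjusted p = 1.41e-06), the highest among the members. Its 24 h levels were 2.43, 2.28 and 2.55 in PCSK7+p53 embryos, against 2.43, 2.43 and 2.32 in control embryos, a change of 0.03 (SE 0.09, adjusted p = 0.805). The 6 h groups were far apart relative to their spread, and the 24 h groups overlapped. The gene cdk1 had 1 probe, as had ccnb3, aurkb, mad2l1 and kif11, so no other probe could be compared for these genes. Aurora kinase A, aurka, had 6 h levels of 4.58, 4.67 and 4.56 in PCSK7+p53 embryos, against 5.35, 5.31 and 5.35 in control embryos, a change of -0.73 (SE 0.06, adjusted p = 3.48e-06). At 24 h they were 3.46, 3.42 and 3.43 in PCSK7+p53 embryos, against 3.73, 3.82 and 3.80 in control embryos, a change of -0.35 (SE 0.06, adjusted p = 0.000691). No overlap was seen at either time, with 3 of 3 probes called lower at 6 h and 2 of 3 at 24 h. The polo-like kinase gene plk1 had 6 h levels of 3.85, 3.84 and 3.76 in PCSK7+p53 embryos, against 4.35, 4.28 and 4.41 in control embryos, a change of -0.53 (SE 0.06, adjusted p = 3.7e-05). At 24 h plk1 stood at 3.36, 3.30 and 3.40 in PCSK7+p53 embryos, against 3.52, 3.57 and 3.55 in control embryos, a change of -0.19 (SE 0.06, adjusted p = 0.0224). The groups were apart both times, but the small 24 h call (adjusted p 0.00698 to 0.215 over 23 alternatives) was lost without control 24 h replicate 2 or 3 or PCSK7+p53 24 h replicate 1 or 2, and 1 of the 2 probes was called there. The call was also lost with normexp, quantile normalization, cyclic loess, the authors' deposited table and the mean of the probes.

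The B-type cyclins, partners of cdk1, split at 24 h, where ccnb1 and ccnb3 were lower and ccnb2 was higher in PCSK7+p53 embryos. Levels of ccnb1 at 6 h were 6.96, 7.08 and 7.02 in PCSK7+p53 embryos, against 7.12, 6.98 and 6.98 in control embryos, a change of -0.01 (SE 0.06, adjusted p = 0.93). At 24 h ccnb1 had levels of 3.94, 3.94 and 3.86 in PCSK7+p53 embryos, against 4.30, 4.25 and 4.27 in control embryos, a change of -0.36 (SE 0.06, adjusted p = 0.00121). Its 6 probes disagreed at 6 h, where 2 were called higher and quantile normalization turned the representing probe to 0.29, while at 24 h all had changes below 0 and 4 were called lower. For ccnb3 the 6 h levels were 2.34, 2.36 and 2.40 in PCSK7+p53 embryos, against 1.96, 1.97 and 1.89 in control embryos, a change of 0.43 (SE 0.07, adjusted p = 0.000368). The 24 h levels of ccnb3 were 1.27, 1.16 and 1.34 in PCSK7+p53 embryos, against 1.51, 1.65 and 1.52 in control embryos, a change of -0.30 (SE 0.07, adjusted p = 0.0051). All arrays of the groups were apart at both times, in opposite directions. The change of ccnb2 was 0.18 (SE 0.08, adjusted p = 0.0603) at 6 h and 0.41 (SE 0.08, adjusted p = 0.00188) at 24 h, with both probes called higher at 24 h.

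Regulators of the metaphase to anaphase transition gave small changes. The anaphase-promoting complex needs cdc20 as its activator and ube2c as a ubiquitin-conjugating enzyme, and mad2l1 encodes a spindle checkpoint protein that holds cdc20 back. The 6 h levels of cdc20 were 5.29, 5.36 and 5.31 in PCSK7+p53 embryos, against 5.47, 5.41 and 5.36 in control embryos, a change of -0.10 (SE 0.06, adjusted p = 0.2). At 24 h they were 2.86, 2.97 and 2.99 in PCSK7+p53 embryos, against 3.32, 3.32 and 3.24 in control embryos, a change of -0.35 (SE 0.06, adjusted p = 0.00111), called on all 3 probes and without overlap. For ube2c, on a single probe, 6 h levels were 4.36, 4.35 and 4.20 in PCSK7+p53 embryos, against 4.06, 4.11 and 3.94 in control embryos, a change of 0.27 (SE 0.07, adjusted p = 0.0073). At 24 h its levels were 4.61, 4.62 and 4.64 in PCSK7+p53 embryos, against 4.90, 4.91 and 5.01 in control embryos, a change of -0.32 (SE 0.07, adjusted p = 0.00449). The groups of ube2c were apart at both times, above control at 6 h and below it at 24 h. The checkpoint gene mad2l1 had 6 h levels of 3.48, 3.51 and 3.44 in PCSK7+p53 embryos, against 3.75, 3.70 and 3.82 in control embryos, a change of -0.28 (SE 0.07, adjusted p = 0.005). Its 24 h levels were 3.82, 3.73 and 3.86 in PCSK7+p53 embryos, against 3.82, 3.81 and 3.64 in control embryos, a change of 0.05 (SE 0.07, adjusted p = 0.618), so that the groups were apart at 6 h alone.

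The motor gene kif11, whose kinesin pushes spindle poles apart, was higher in PCSK7+p53 embryos at 6 h. Its levels there were 2.06, 2.05 and 1.94 in PCSK7+p53 embryos, against 1.20, 1.28 and 1.32 in control embryos, a change of 0.75 (SE 0.06, adjusted p = 5.09e-06). At 24 h kif11 stood at 3.11, 3.07 and 3.10 in PCSK7+p53 embryos, against 3.17, 3.24 and 3.13 in control embryos, a change of -0.08 (SE 0.06, adjusted p = 0.283). The 24 h groups did not overlap although the change had no call.

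The chromosomal passenger complex corrects faulty attachment of chromosomes to the spindle and holds aurkb as its kinase with the survivin and borealin proteins, the products of birc5a, birc5b and cdca8. The survivin genes were called in opposite directions at 24 h. Levels of birc5a at 6 h were 2.21, 2.11 and 1.95 in PCSK7+p53 embryos, against 1.42, 1.48 and 1.66 in control embryos, a change of 0.57 (SE 0.08, adjusted p = 0.000237). The 24 h levels of birc5a were 2.56, 2.65 and 2.58 in PCSK7+p53 embryos, against 2.89, 2.81 and 2.89 in control embryos, a change of -0.26 (SE 0.08, adjusted p = 0.0263). Both probes were called higher at 6 h and lower at 24 h without overlap of the representing probe's groups, but its 24 h call (adjusted p 0.00195 to 0.076 over 23 alternatives) was lost without control replicate 1 or 3 or PCSK7+p53 replicate 1 or 3 of that time. A replicate block also ended this call. For birc5b the 6 h levels were 3.94, 4.02 and 3.96 in PCSK7+p53 embryos, against 3.42, 3.49 and 3.44 in control embryos, a change of 0.52 (SE 0.07, adjusted p = 0.000165). At 24 h birc5b had levels of -1.69, -1.88 and -1.81 in PCSK7+p53 embryos, against -2.56, -2.77 and -2.65 in control embryos, a change of 0.86 (SE 0.07, adjusted p = 1.98e-05). It was thus the 1 member that was called higher at both times, on its only probe. The kinase gene aurkb changed by -0.20 (SE 0.08, adjusted p = 0.053) at 6 h and by -0.25 (SE 0.08, adjusted p = 0.0252) at 24 h. That 24 h call (adjusted p 0.00837 to 0.105 over 23 alternatives) was lost without control replicate 1 or 3 or any of the 3 PCSK7+p53 arrays of 24 h. Quantile normalization, cyclic loess and the authors' deposited table also ended the 24 h call of aurkb. For cdca8 the representing probe changed by -0.32 (SE 0.07, adjusted p = 0.00205) at 6 h and by -0.46 (SE 0.07, adjusted p = 0.000421) at 24 h, while 1 of its 4 probes was called higher at both times, at 0.70 at 6 h and 1.11 at 24 h. With the mean of its probes, the 24 h call of cdca8 was lost, at -0.018 (adjusted p 4e-05 to 0.825 over 23 alternatives).

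The effect of the morpholinos differed between the times for 22 of the 31 members by limma's test of the difference (24 h effect minus 6 h effect), 17 with a lower and 5 with a higher effect at 24 h. Over all genes 50.3% were called in this test, 22.4% higher and 27.9% lower, and the median difference was -0.35 for the members and -0.04 over all genes. The differences that were lowest belonged to cdk1, at -1.29 (SE 0.12, adjusted p = 3.27e-05), mcm6, at -1.20 (SE 0.13, adjusted p = 7.25e-05), and mcm3, at -0.94 (SE 0.15, adjusted p = 0.000632). The higher ones were those of ccnd1, at 0.61 (SE 0.12, adjusted p = 0.00233), aurka, at 0.38, birc5b, at 0.34, plk1, at 0.34, and mad2l1, at 0.33. Among the 5, only birc5b had positive effects called at both times, and the other 4 had decreases at 6 h that were smaller or without a call at 24 h. With cyclic loess normalization the counts were 8 higher and 11 lower, beside 24.4% and 25.2% of all genes. The counts were 7 higher and 12 lower with quantile normalization, beside 24.1% and 25.3% of all genes. In the authors' deposited table, where 29 members were measured, they were 7 higher and 13 lower, beside 25.4% and 25.1% of all genes. With normexp they were 5 higher and 20 lower, beside 27.5% and 22.2% of all genes, and 55.4% of the calls over all genes were higher, in place of 44.5%.

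Seen by their 6 h calls, 7 of the 11 members that were higher at 6 h were lower at 24 h (mcm3, mcm4, mcm6, ccna2, ccnb3, birc5a and ube2c), beside 17.9% of all genes that were higher at 6 h. Of the 9 that were lower at 6 h, 6 were lower again at 24 h (mcm2, gmnn, ccne2, plk1, aurka and cdca8), beside 37.1% of all such genes. Of the 11 without a call at 6 h, 8 were lower at 24 h, beside 23.1% of all such genes. The changes at 6 h and 24 h, which share no array, correlated at 0.20 over the 31 members and at 0.25 over the 12849 genes, as a description across genes, which are not independent and share their normalization.

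More members changed by at least 2-fold between 6 h and 24 h than between the morpholinos, in both groups of embryos. In PCSK7+p53 embryos 13 were higher and 16 lower at 24 h than at 6 h, where 90.9% of all genes were called, 47.6% higher and 43.3% lower. In control embryos the counts were likewise 13 higher and 16 lower, where 91.2% of all genes were called, 48.1% higher and 43.1% lower. Changes of at least 2-fold were called for 20 members in PCSK7+p53 embryos and for 17 in control embryos, beside 64.6% and 65.7% of all genes. The A-type and E-type cyclins fell with time: ccna1 changed by -9.11 in PCSK7+p53 embryos and by -8.55 in control embryos, and ccne1 by -5.04 in PCSK7+p53 embryos and by -4.78 in control embryos. The geminin gene gmnn fell by 3.81 in PCSK7+p53 embryos and by 4.01 in control embryos. Increases were called for mcm2, at 2.16 in PCSK7+p53 embryos and 1.98 in control embryos, for mcm6, at 1.88 in PCSK7+p53 embryos and 3.08 in control embryos, and for cdk1, at 1.51 in PCSK7+p53 embryos and 2.81 in control embryos.

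The direction with time was the same for 26 members, 11 higher and 15 lower in both groups of embryos. The share of all genes called the same way in both groups was not computed. Of all genes, 90.9% were called with time in PCSK7+p53 embryos and 91.2% in control embryos. In mcm4 the direction differed, with a fall of 0.27 in PCSK7+p53 embryos and a rise of 0.39 in control embryos. For mcm7 the change was 0.00 without a call in PCSK7+p53 embryos and 0.74 in control embryos, and for ccnd1 it was -0.07 without a call in PCSK7+p53 embryos and -0.67 in control embryos. Rises were called in PCSK7+p53 embryos and not in control embryos for cdt1, at 1.36 in PCSK7+p53 embryos and -0.04 in control embryos, and for mad2l1, at 0.33 in PCSK7+p53 embryos and 0.00 in control embryos. The PCSK7+p53 arrays of 6 h and of 24 h lay on different slides, so slide and scan cannot be told apart from time in these embryos. Each control slide held an array of either time, and 29 of the 31 members changed in the same direction on all 3 slides, the exceptions being cdt1 and mad2l1. Leaving out PCSK7+p53 replicate 3 of 24 h ended the call for cdt1 (adjusted p 0.00439 to 0.636 over 20 alternatives). So did quantile and cyclic loess normalization, and with normexp its change was -0.073 without a call. The cdt1 probe was well above background on 2 of the 3 PCSK7+p53 arrays at 6 h, so the size of its rise is uncertain. These directions rest on the scaling for mcm7, whose rise in control embryos became a fall of 0.48 with quantile normalization and of 0.24 in the authors' deposited table. In PCSK7+p53 embryos mcm7 was called lower with time in 4 alternatives (quantile, at -0.98, cyclic loess, the deposited table and the mean of its probes). The rise of mcm4 in control embryos lost its call with quantile or cyclic loess normalization. Under both of these normalizations ccnd1 was called lower with time in PCSK7+p53 embryos and mad2l1 in control embryos.

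**Figure D4:**
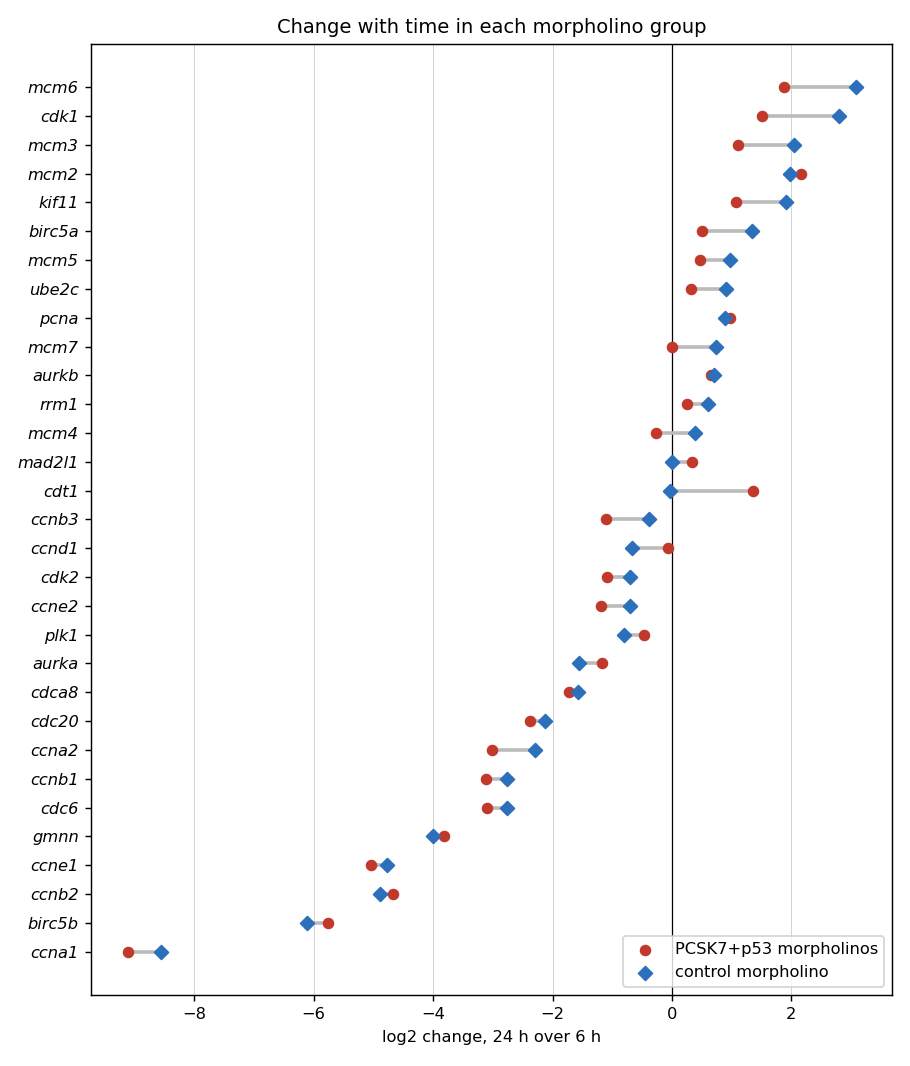
Change of each of the 31 genes from 6 h to 24 h on the log2 scale in PCSK7+p53 embryos (red circles) and control embryos (blue diamonds), ordered by the change in control embryos, with a grey line joining both values of a gene. Values run from -9.11 for ccna1 in PCSK7+p53 embryos to 3.08 for mcm6 in control embryos, and mcm4 is the gene with called changes on opposite sides of 0.

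Some members have a close relative on the array, and the relatives named here (mcm3l, mcm6l and ccnb1l) were picked after their values were seen. The helicase genes mcm3 and mcm6 rose between 6 h and 24 h, whereas mcm3l and mcm6l, which the gene table also lists as MCM3m and MCM6m, fell. For mcm3l, 6 h levels were 4.16, 4.18 and 4.02 in PCSK7+p53 embryos, against 4.19, 4.26 and 4.29 in control embryos, and 24 h levels were -2.27, -2.44 and -2.35 in PCSK7+p53 embryos, against -2.52, -2.57 and -2.94 in control embryos. The morpholino effect on mcm3l was -0.13 (SE 0.11, adjusted p = 0.328) at 6 h and 0.32 (SE 0.11, adjusted p = 0.0302) at 24 h. The other mcm3l probe had no call at 24 h, at 0.40 (SE 0.18, adjusted p = 0.0967). Levels of mcm6l at 6 h were 2.63, 2.65 and 2.62 in PCSK7+p53 embryos, against 2.79, 2.71 and 2.77 in control embryos, and at 24 h they were -3.69, -4.09 and -4.12 in PCSK7+p53 embryos, against -3.78, -3.64 and -3.50 in control embryos. Its morpholino effect was -0.12 (SE 0.11, adjusted p = 0.367) at 6 h and -0.33 (SE 0.11, adjusted p = 0.0374) at 24 h. Neither relative was called at 6 h, where mcm3 and mcm6 themselves were higher, and a test of the difference between relatives was not run. The relative of cyclin B1, ccnb1l, changed by -0.61 (SE 0.16, adjusted p = 0.00655) at 6 h and by 0.30 (SE 0.16, adjusted p = 0.137) at 24 h. Its other probes disagreed at 6 h, with a lower call at -0.62 (adjusted p = 0.000227) and no call at -0.78 (adjusted p = 0.0718) and -0.06 (adjusted p = 0.865). On the representing probe, ccnb1l fell with time by 8.17 in PCSK7+p53 embryos and by 9.09 in control embryos.

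On their representing probes, the survivin genes also ran apart with time. While birc5b fell by 5.77 in PCSK7+p53 embryos and by 6.11 in control embryos, the representing probe of birc5a rose by 0.51 in PCSK7+p53 embryos and by 1.34 in control embryos. The other birc5a probe fell, by 2.51 in PCSK7+p53 embryos and by 1.63 in control embryos, so the direction of birc5a with time is uncertain. Relatives may share signal on any of these probes, which was not tested because probe sequences were not used.

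**Figure D5:**
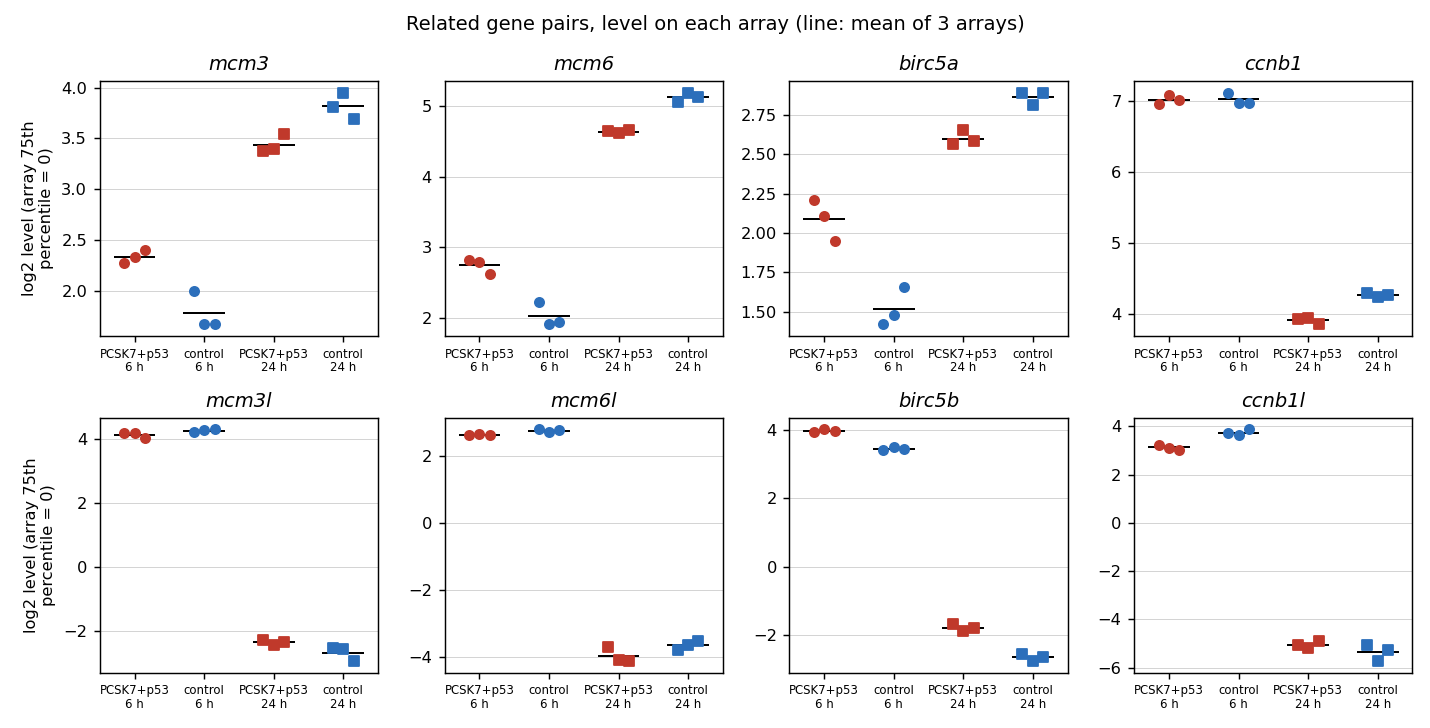
Levels on each array (log2 scale, 0 at the array's 75th percentile, own axis range for each gene) of mcm3, mcm6, birc5a and ccnb1 in the upper row and of their relatives mcm3l, mcm6l, birc5b and ccnb1l below, with PCSK7+p53 arrays in red, control arrays in blue and a line at the mean of 3 arrays. Levels of mcm3 and mcm6 were higher at 24 h than at 6 h and those of all 4 relatives in the lower row were lower.

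Other cell cycle genes were read from 3 lists, with 129 of 157 genes measured. At 6 h, 43 were higher and 45 lower in PCSK7+p53 embryos (33.3% and 34.9%, beside 32.0% and 30.9% of all genes), and at 24 h, 16 were higher and 49 lower, with a median change of -0.11 at 24 h. The 56 other mitosis genes had 3 higher and 27 lower calls at 24 h, and 18 higher and 21 lower calls at 6 h. For the 43 other replication genes the 24 h counts were 9 higher and 13 lower, after 16 higher and 13 lower at 6 h. The 30 genes of the E2F and cyclin list had 4 higher and 9 lower calls at 24 h and 9 higher and 11 lower calls at 6 h. Set beside the 25.8% of all genes called lower at 24 h, lower calls covered 48.2% of the other mitosis genes, 30.2% of the other replication genes and 30.0% of the E2F and cyclin genes.

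Among called genes of these lists whose probes shared a sign, the highest at 6 h were ccnf, an F-box cyclin, at 1.00 (SE 0.07, adjusted p = 2.51e-06), rfc1, a clamp loader subunit, at 0.99 (SE 0.10, adjusted p = 2.51e-05), and cdkn1ba, an inhibitor of cyclin-dependent kinases, at 0.81 (SE 0.13, adjusted p = 0.000384). Those lowest at 6 h were ccnd3, a D-type cyclin, at -1.83 (SE 0.08, adjusted p = 1.45e-07), orc2, an origin recognition subunit, at -1.40 (SE 0.06, adjusted p = 1.06e-07), and e2f7, a repressor of S phase genes, at -1.20 (SE 0.14, adjusted p = 5.2e-05). At 24 h the highest were gins1, a subunit of the replicative helicase complex, at 1.54 (SE 0.26, adjusted p = 0.000932), plk3, at 0.71 (SE 0.07, adjusted p = 3.55e-05), and again cdkn1ba, at 0.70 (SE 0.13, adjusted p = 0.00168). The lowest at 24 h were wee2, an inhibitory kinase of the oocyte in mouse, at -0.88 (SE 0.12, adjusted p = 0.000306), aspm, a spindle pole gene of neural progenitors, at -0.79 (SE 0.08, adjusted p = 6.11e-05), and ckap5, a microtubule polymerase, at -0.72 (SE 0.10, adjusted p = 0.000409). The inhibitor cdkn1ba was thus among the highest at both times. Of the genes named, cdkn1ba, e2f7, gins1 and plk3 had 1 probe each, so for them a shared sign says nothing of agreement between probes. The gins1 probe was dim at 6 h, where it was not well above background on any control array.

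Markers of tissues and stages were read in the same way, beside 21.0% of all genes higher and 25.8% lower at 24 h and 32.0% higher and 30.9% lower at 6 h. At 24 h, 7 of 9 epidermis and enveloping layer markers, 3 of 9 neuron markers and 4 of 10 muscle markers were lower in PCSK7+p53 embryos and 0 of each were higher. The share called lower was 77.8% for epidermis, 40.0% for muscle and 33.3% for neurons, and the last is near the 25.8% of all genes. Their summed linear levels, in units of the array's 75th percentile, were 680.1 to 775 in PCSK7+p53 embryos, against 961 to 1111 in control embryos, for epidermis. For neurons they were 46.9 to 55.4 in PCSK7+p53 embryos, against 65.4 to 70.2 in control embryos, and for muscle 399 to 447 in PCSK7+p53 embryos, against 466 to 596 in control embryos, with all of these markers above background at 24 h. Of 10 early-embryo genes, 7 were higher in PCSK7+p53 embryos at 6 h and 7 at 24 h, with 0 lower, and their summed levels at 24 h were 5.58 to 7.63 in PCSK7+p53 embryos, against 4.89 to 5.11 in control embryos. At 6 h these sums were 306 to 316 in PCSK7+p53 embryos, against 239 to 264 in control embryos. Among 8 genes of 24 h tissues, 0 were higher and 3 lower at 24 h, and 2 were higher and 3 lower at 6 h. Of these 8, mylpfa was not well above background on any 6 h array and myl7 and elavl3 on no control array of 6 h, so the 6 h count of this list includes genes that were not well above background in 1 or both groups. The list also shares genes with the muscle and neuron lists, among them mylpfa and elavl3, so the counts of these lists are not independent. Germline markers, with 9 measured, had 3 higher and 1 lower at 24 h and 5 higher and 1 lower at 6 h.

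At 6 h, 6 of 9 epidermis and enveloping layer markers were higher and 0 lower, with summed levels of 137 to 143 in PCSK7+p53 embryos, against 75.8 to 98.5 in control embryos, while neuron markers had 4 higher and 3 lower and muscle markers 2 higher and 5 lower. The neuron markers elavl3 and sypa were not well above background on any control array at 6 h, and the muscle markers mylpfa, myog, tnni2a.4 and atp2a1 were not on any array at 6 h. In a list of 10 measured checkpoint and p53 pathway genes, 7 were lower and 2 higher at 6 h, and 4 were higher and 0 lower at 24 h. Lower calls thus covered 70.0% of the list at 6 h, beside 30.9% of all genes, and higher calls 40.0% at 24 h, beside 21.0% of all genes. These include chek1, a checkpoint kinase that slows S phase and mitotic entry, at -0.54 (SE 0.08, adjusted p = 0.000165) at 6 h and 0.30 (SE 0.08, adjusted p = 0.0082) at 24 h. It is named as a single example and was at neither end of the list. Changes in the list ran from -2.63 to 0.54 at 6 h and from -0.21 to 0.83 at 24 h. Its summed levels at 6 h were 79.1 to 85.4 in PCSK7+p53 embryos, against 73.5 to 76.9 in control embryos, opposite to most calls. At 24 h the sums were 223 to 235 in PCSK7+p53 embryos, against 228 to 273 in control embryos. Sums of this kind follow the brightest probes of a list. The part of tissue makeup, stage or array brightness in the changes of the replication and mitosis genes was not tested.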

How the data were processed

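RNA of 12 pools of zebrafish embryos was hybridised to one-colour Agilent arrays after Cy3 labelling, per the labels' protocols. Per the file headers, the deposited scanner values are intensity per spot on a linear scale, from which Feature Extraction had subtracted background with a spatial trend. The submitters' processing notes give its version as 10.7.1, while the file headers give 10.7.3.1 for the PCSK7+p53 arrays and 10.7.1.1 for the control arrays, with different releases of the array design. The authors' deposited value table (intensity, linear, 19838 probes, median 172 on every array, not centred by gene) served only as an alternative. Its sorted values differed between arrays by at most 8.58 at any rank, which is the pattern that quantile normalization produces. The deposited table and the quantile alternative are therefore not independent checks.

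Outlier spots were dropped and spots of 1 probe averaged. Each array's log2 values were centred on its 75th percentile among 43603 non-control probes. To be kept, a probe had to be well above background in each of the 3 arrays of some group (36684 probes). RefSeq identifiers and a gene table of assembly GRCz12tu named 26854 probes for 14016 genes, and 15 probes with conflicting names stayed unnamed. No coordinates or sequences are given, and promoters were not used here. Two-sided tests with limma 3.58.1 (R 4.3.3, lmFit, contrasts, eBayes) used 1 mean per group over 12 arrays, with 8 residual and 2.08 prior degrees of freedom, a median residual SD of 0.14 and Benjamini-Hochberg adjustment over kept probes. The script was tested on simulated data. Labels gave the groups and replicate numbers.

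The members and gene lists were chosen with earlier results of these data known. Every array's value is given for members called with at least 1.5-fold at 6 h or 24 h and for members whose morpholino effect differed between times. Of the other cell cycle lists, up to 3 highest and 3 lowest called genes whose kept probes share a sign are named. The gene chek1 of the checkpoint and p53 list is named outside this rule. Alternatives were normexp background correction (offset 50, on median signals because the files hold no mean signal), quantile and cyclic loess normalization, the deposited table, filters on dim probes, the mean of a gene's probes, a variance model with trend, slide and replicate blocks, the 2 groups alone and leaving out each array.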

Additional observations from a re-analysis of the deposited data

Results flagged for a closer look

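The morpholino effect (PCSK7+p53 minus control, log2) differed between 24 h and 6 h in 22 members by limma's test of the difference, with adjusted p from 3.27e-05 to 0.0319, beside 50.3% of all genes. The difference is the effect at 24 h minus the effect at 6 h. Among replication genes, cyclins of G1 and S phase and cdk2 it was below 0 for mcm3 -0.938, mcm4 -0.662, mcm5 -0.504, mcm6 -1.2, mcm7 -0.746, cdc6 -0.333, rrm1 -0.346, ccna1 -0.561, ccna2 -0.72 and cdk2 -0.393. Among mitosis genes it was below 0 for ccnb1 -0.354, ccnb3 -0.729, cdk1 -1.29, cdc20 -0.257, birc5a -0.834, ube2c -0.584 and kif11 -0.835. It was above 0 for ccnd1 0.607, plk1 0.339, aurka 0.38, mad2l1 0.329 and birc5b 0.341. The calls of ccna1 (adjusted p 0.000231 to 0.346 over 21 alternatives) and cdc20 (adjusted p 0.0115 to 0.534 over 22 alternatives) were lost in some fits without 1 array. For ccna1 these were the fits without control 6 h replicate 1 or 2, control 24 h replicate 1 or 2, PCSK7+p53 6 h replicate 1 or 2 or PCSK7+p53 24 h replicate 2. For cdc20 these were the fits without control 6 h replicate 2 or 3, control 24 h replicate 1 or 2, PCSK7+p53 6 h replicate 2 or 3 or PCSK7+p53 24 h replicate 1. Both were also lost with quantile normalization and the replicate block, ccna1 with the mean of its probes, and cdc20 with cyclic loess and the deposited table. The calls of mcm5 (adjusted p 0.00162 to 0.139 over 22 alternatives), rrm1 (0.00364 to 0.346 over 22 alternatives) and cdk2 (0.00284 to 0.0827 over 22 alternatives) were lost with quantile normalization, cyclic loess and the deposited table, where the difference of mcm5 shrank to as little as -0.22. Those of cdc6 (0.00732 to 0.212 over 22 alternatives) and ccnb1 (0.000615 to 0.413 over 22 alternatives) were lost with cyclic loess, and that of birc5b (0.00449 to 0.877 over 22 alternatives) with normexp, at 0.02. As the morpholinos lie on different slides, the part of slide, scan session, software version and design release cannot be told apart from these differences.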

How the results depend on the processing

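The 24 h counts kept their direction under all alternatives tried, with 2 members higher in each and 17 to 22 lower (18 to 21 without 1 array). Some alternatives could alter only the adjusted p of a 24 h change, not its size or direction. These were no filter on dim probes, the variance model with trend, slide and replicate blocks, the 24 h groups alone and leaving out a 6 h array. At 6 h the counts were 11 to 14 higher and 7 to 12 lower (11 to 12 and 7 to 9 without 1 array). The difference between times gave 5 to 6 higher and 15 to 18 lower without 1 array, and 8 higher and 11 lower with cyclic loess. It gave 7 higher and 12 lower with quantile normalization, beside 24.1% and 25.3% of all genes, and 7 higher and 13 lower in the deposited table, beside 25.4% and 25.1%. The causes of these shifts were not tested. Changes with time gave 13 higher and 16 lower in control embryos without 1 array, 12 to 13 higher and 16 lower in PCSK7+p53 embryos, and 9 higher and 18 lower in PCSK7+p53 embryos and 10 higher and 19 lower in control embryos with quantile normalization. Effects at 6 h that reversed were ccne1, at -0.34, and cdca8, at 0.0028, with the mean of a gene's probes, and ccnb1, at 0.29 with quantile normalization and 0.30 in the deposited table. Changes with time that reversed were mcm7 in control embryos, at -0.48 (quantile) and -0.24 (deposited table), mad2l1 in control embryos, at -0.21 (quantile) and -0.23 (cyclic loess), birc5a, at -1.0 in PCSK7+p53 and -0.15 in control embryos (mean of its probes, which disagree), and in PCSK7+p53 embryos cdt1, at -0.073 (normexp), and rrm1, at -0.13 (quantile). The causes were not tested except where probes disagree. For single genes, 3318 comparisons of a result with an alternative kept the call or its absence, 97 lost the call and 61 gained it. Another 12 reversed direction with a call in either fit. Changes of direction without a call in either fit are counted among the 3318. Normexp moved the share of calls that were higher over all genes to 34.5% at 6 h, from 50.8%, and to 55.4% for the difference, from 44.5%, and the median of all probes to -0.27 at 6 h, from -0.04. Its fit failed on 3 arrays until spots more than 50 below background were left out, a choice made after seeing the data. Quantile normalization moved the median change with time of all probes in control embryos to -0.28, from 0.04. With the replicate number as a block, 11 were higher and 7 lower at 6 h, 2 and 19 at 24 h, and 5 and 15 for the difference. Same-numbered control arrays of 6 h and 24 h shared a slide, and no source says whether same-numbered pools shared a clutch or day. Over 18 pairs of arrays with the same number, deviations from group means correlated at -0.05 to 0.02. Such correlations cannot decide whether the numbers pair pools. Without 1 array, calls were gained for aurkb at 6 h (without PCSK7+p53 6 h replicate 1 or 2, adjusted p 0.00936 to 0.265 over 23 alternatives), ccnb2 at 6 h (control 6 h replicate 3 or PCSK7+p53 24 h replicate 1, 0.000397 to 0.341 over 23 alternatives), ccna1 (control 24 h replicate 3, at 6 h 0.00144 to 0.302 over 22 alternatives and at 24 h 0.00248 to 0.863 over 22 alternatives) and the differences of ccne2 (control 6 h replicate 2 or PCSK7+p53 24 h replicate 3, 0.0269 to 0.116 over 22 alternatives) and cdt1 (PCSK7+p53 6 h replicate 3, 0.0425 to 0.181 over 20 alternatives). Dim signal limits cdt1 and rrm2b.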
